A study of Mus musculus with 15 samples.

Results

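The genes described here are 9 transcription factors of the formative and primed states of pluripotency, *Otx2*, *Pou3f1*, *Foxd3*, *Zic2*, *Zic5*, *Sox3*, *Sox4*, *Sox11* and *Sall2*. The rule lists them by name, and they are 9 of the 55536 genes in the count table. Each was found by its ENSEMBL identifier through the symbols of GENCODE M21. Of the 9, 8 passed edgeR's filter on low counts, and *Foxd3* did not.

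Naive pluripotent cells resemble the epiblast before implantation, and formative and primed cells resemble the epiblast after it. On the way between these states, cells give up the naive network of factors such as Esrrb and Klf4 and switch on another, in which OTX2 and the POU factor OCT6 (the product of *Pou3f1*) sit with ZIC, SOX and FOX proteins at enhancers also bound by OCT4. Primordial germ cells (PGCs) are set aside from the formative epiblast, and loss of OTX2 is known from other work to precede the germline programme, which reactivates part of the naive network.

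RNA-seq was performed on 15 samples, 3 each of ESCs, EpiLCs, D2PGCLCs, D4PGCLCs and D6PGCLCs. ESCs are mouse embryonic stem cells held in the naive state by inhibitors of MEK and GSK3 together with LIF on a coat of laminin, EpiLCs are epiblast-like cells made from them with Activin A, bFGF and serum replacement over 48 h, and PGCLCs are primordial germ cell-like cells collected on days 2, 4 and 6 of induction. All groups, ESCs and EpiLCs included, carried the 4TF transgenes (*Prdm1*, *Prdm14*, *Tfap2c* and *Nanog*) under doxycycline control, and doxycycline was given only from the start of PGCLC induction. PGCLCs were the Stella-eGFP+ cells, whose reporter follows *Dppa3*, and no sort is given for ESCs or EpiLCs.

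The inducible cells were derived as drug-selected ESC clones in a reporter line, so the samples represent one engineered background and not independent animals. Because time, medium, doxycycline and the sort change together between EpiLCs and PGCLCs, their parts in a difference cannot be told apart. In these bulk samples, fewer cells that express a gene and less RNA of it per cell cannot be told apart either. The labels do not say whether replicates came from separate cultures, so the tests measure the spread between these samples, which may be technical.

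The total count per sample ranged from 22555021 to 42725681. D6PGCLC replicate 1 had the fewest genes with a count, 18061 against 21103 to 24343 in the other samples, and calls that were lost without it are given with both values. The PGC markers *Dppa3*, *Itgb3*, *Dnd1*, *Nanos3*, *Kit* and *Dazl* summed to 935.5 to 1438 CPM (TMM-normalized counts scaled to library size) in PGCLC samples and 128.8 to 248.6 CPM in the others, although *Dppa3* was the basis of the sort. The 11 naive pluripotency factors summed to 2962 to 3007 CPM in ESCs and 568.6 to 639.7 CPM in EpiLCs, so the groups carried the markers of their labels.

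All 8 measured factors were highest in EpiLCs and fell by day 2 of PGCLC induction. Relative to ESCs, EpiLCs had more RNA of 8 of the 8, whereas 14.4% of all genes tested were called higher and 11.9% lower. A gene was called when its Benjamini-Hochberg adjusted p from edgeR's quasi-likelihood test was under 0.05 and its log2 fold change (log2FC) was above 1 or below -1. The median log2FC of the 8 was 2.21, and that of all 18090 genes tested was -0.01. In D2PGCLCs against EpiLCs, 8 of the 8 were called lower, with a median log2FC of -4.37, while 14.4% of all genes were called lower and 11.0% higher. For each of the 8 in both comparisons, the groups did not overlap. How many of all genes tested were without overlap was not counted. These comparisons share the EpiLC samples, so a high EpiLC value enters both. The factors were chosen with earlier results of these data known, so these counts only describe them.

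Within PGCLC induction, fewer of the factors were called, and all of those were higher at the later day. From day 2 to day 4, 1 of the 8 was called higher (*Sox3*) against 2.56% of all genes, and none was called lower against 0.376%. From day 4 to day 6, *Sox3* and *Sall2* were called higher, 2 of the 8 against 2.29% of all genes, and none lower against 0.785%. From day 2 to day 6, 4 of the 8 were called higher (*Pou3f1*, *Sox3*, *Sox11* and *Sall2*) against 10.9% of all genes, and none lower against 2.75%. For these 3 comparisons, no factor was lower at an unadjusted p under 0.05 in edgeR, and DESeq2 called none lower. The replicates of day 6 lay above those of day 2 for 7 of the 8, with *Otx2* the exception. Among these, *Zic2*, *Zic5* and *Sox4* were not called, and how many of all genes showed such a separation was not counted. D6PGCLCs nevertheless stayed below EpiLCs for 8 of the 8, while 12.0% of all genes were lower and 15.9% higher in that comparison. Some of these calls rested on single samples. From day 4 to day 6, *Sall2* had a log2FC of 1.10 (adjusted p = 0.0135 in edgeR), and 0.94 without D6PGCLC replicate 1 (adjusted p = 0.0576) and 0.82 without D4PGCLC replicate 1 (adjusted p = 0.0562), neither of them called. *Sox3* had a log2FC of 1.28 over those days, and its adjusted p was above 0.05 without D6PGCLC replicate 1 (log2FC 1.12, adjusted p = 0.0693), D6PGCLC replicate 2 (log2FC 1.16) or D4PGCLC replicate 1 (log2FC 1.12). For day 2 to day 4, the call of *Sox3* was lost without D2PGCLC replicate 2 or 3 and without D4PGCLC replicate 2 or 3, at log2FCs of 1.12 to 1.38, whereas without D2PGCLC replicate 1 it was called at 2.06. *Pou3f1* from day 2 to day 6 was under the fold threshold without D6PGCLC replicate 1 (log2FC 0.74, adjusted p = 0.0163) or D2PGCLC replicate 3 (log2FC 0.73), and *Sox11* without D2PGCLC replicate 2 (log2FC 0.86) or D6PGCLC replicate 2 (log2FC 0.89).

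Set against ESCs, the factors divided. On day 2, *Otx2* and *Sox4* were called higher than in ESCs (2 of the 8, against 11.7% of all genes), and *Sox3*, *Sox11* and *Sall2* lower (3 of the 8, against 12.7%). On day 6, *Otx2*, *Pou3f1* and *Sox4* were higher (3 of the 8, against 15.8% of all genes) and *Sox11* and *Sall2* lower (2 of the 8, against 10.3%). The remaining 3, *Zic2*, *Zic5* and *Sox3*, were not called on day 6. All 5 calls on day 6 were made with and without D6PGCLC replicate 1.

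**Figure D1:**
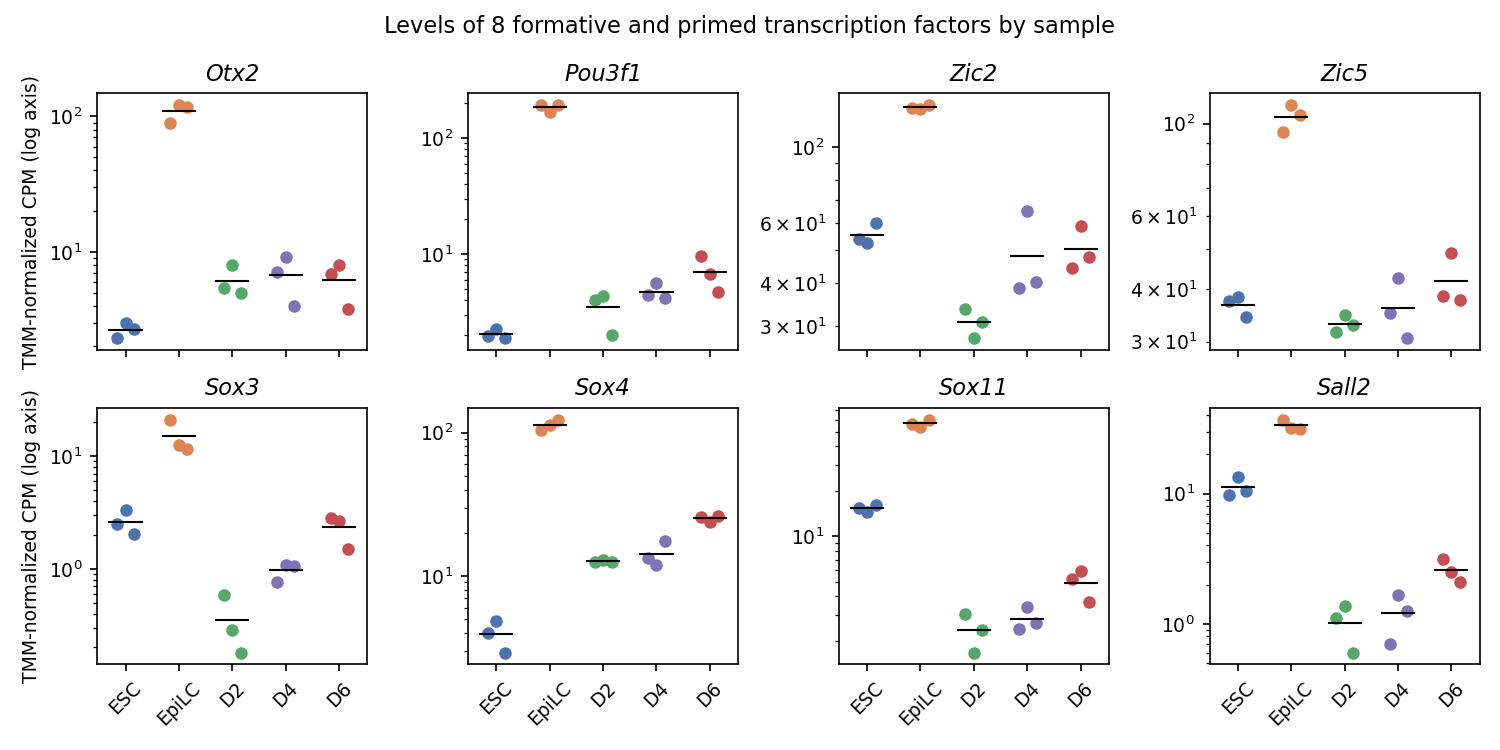
Level of each of the 8 measured factors in every sample, as TMM-normalized CPM on a log axis, with 1 point per sample, colours for the 5 groups and a line at the group mean. Each panel has its own scale. The 3 EpiLC samples stand above the other 12 in every panel, and the lowest mean is that of day 2 for *Zic2*, *Zic5*, *Sox3*, *Sox11* and *Sall2* and that of ESCs for the other 3.

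*Otx2* encodes a homeodomain factor that opens formative enhancers and restrains entry into the germline. It lies on the minus strand at chr14:48657677-48673819 (mm10, as are all coordinates here), with 6 exons in its longest transcript. Its level was 2.30, 2.98 and 2.68 CPM in ESCs and 88.9, 121 and 118 CPM in EpiLCs. In D2PGCLCs it was 5.36, 8.03 and 4.98 CPM, in D4PGCLCs 7.09, 9.19 and 4.01 CPM, and in D6PGCLCs 6.86, 8.04 and 3.77 CPM. The overlapping genes *Otx2os1* (antisense, 154 shared exon bases) and *Gm49154* (same strand, 168) had at most 23 and 1 counts in a sample. EpiLCs stood far above all other samples, the PGCLC samples formed one band across the days, and every PGCLC sample was above every ESC sample.

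*Otx2* was 41.4-fold higher in EpiLCs than in ESCs (log2FC 5.37, SE 0.31, adjusted p = 4.48e-11) and fell by 4.17 on the log2 scale by day 2 (SE 0.28, adjusted p = 4.86e-10). What remained on day 2 was 5.60% of the EpiLC mean, and still 2.30-fold the ESC level (log2FC 1.20, SE 0.30, adjusted p = 0.00286). That last call was lost without D2PGCLC replicate 2, at a log2FC of 0.97. From day 2 to day 6 the log2FC was 0.04, with a 95% interval of -0.53 to 0.61. A change of the size seen in *Sox3* over the same days lies outside this interval, whereas smaller changes in either direction lie within it.

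RefSeq gives 4 start sites of *Otx2* for which upstream windows were at hand. Of the 250 bases before each start, 1 window held GGATTA or its reverse complement TAATCC, a motif that OTX homeodomains are known to bind, and 6.25% of the 32851 mouse windows of that length held it. That window is shown on the gene's strand, at chr14:48665110-48665359 (minus strand, RefSeq on GRCm38.p6), with the motif in capitals. A match in the letters is not evidence of binding.
Otx2: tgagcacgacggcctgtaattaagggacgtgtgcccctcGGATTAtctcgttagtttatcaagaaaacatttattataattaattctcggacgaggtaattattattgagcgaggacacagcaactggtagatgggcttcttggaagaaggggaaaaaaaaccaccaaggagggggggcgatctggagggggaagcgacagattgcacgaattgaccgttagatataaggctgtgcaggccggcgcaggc

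*Pou3f1*, which encodes the POU factor OCT6, showed the widest range. It has a single exon on the plus strand at chr4:124656807-124660655. Its level was 1.97, 2.24 and 1.88 CPM in ESCs and 192, 169 and 191 CPM in EpiLCs. It was 3.98, 4.37 and 2.01 CPM in D2PGCLCs, 4.43, 5.57 and 4.15 CPM in D4PGCLCs and 9.51, 6.67 and 4.68 CPM in D6PGCLCs. The antisense gene *Gm2164*, which shares 330 exon bases with it, had 23 to 38 counts in EpiLC samples and at most 10 in the others. The EpiLC samples stood apart, ESCs and D2PGCLCs overlapped through D2PGCLC replicate 3, and the D6PGCLC samples all lay above the D2PGCLC samples.

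The rise into EpiLCs was 91.1-fold (log2FC 6.51, SE 0.26, adjusted p = 3.52e-13), the highest of the 8. By day 2 the level was 1.88% of the EpiLC mean, the lowest share of the 8 (log2FC -5.74, SE 0.24, adjusted p = 1.40e-12). The later rise from day 2 to day 6 was 2.03-fold (log2FC 1.02, SE 0.24, adjusted p = 0.00225), and D6PGCLCs were 3.45-fold above ESCs (adjusted p = 1.18e-05). Those D6PGCLC levels were still 3.78% of the EpiLC mean. Against ESCs, day 2 had an adjusted p of 0.0302 but a log2FC of 0.76, short of the fold threshold.

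*Foxd3* encodes a forkhead factor that is widely used as a marker of pluripotent cells and works at enhancers in the same transition. It was listed at 0 counts in all 15 samples, out of 475931970 counts in total. A count of 0 allows up to 3 counts, which is 0.133 CPM in the smallest library, and this limit covers counting error only. The gene has a single exon on the plus strand at chr4:99656299-99658622, and the miRNA gene *Gm23366*, which lies within it, was at 0 as well. The neighbouring protein-coding gene *Alg6* had group means of 13.5 to 16.4 CPM. The noncoding RNA gene *Gm12688*, read beside it, had 9 to 18 counts in EpiLC samples and at most 8 in the others. In all, 3682 of 22028 protein-coding genes (16.7%) were at 0 in every sample. How the zeros of *Foxd3* arose was not tested, and no statement on its expression is drawn from them. Among its relatives, *Foxd4* had 0 counts in the ESC samples and 7 to 28 counts in the EpiLC samples.

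*Zic2* and *Zic5* encode zinc-finger factors of one family and are divergent neighbours on chromosome 14. *Zic5* lies on the minus strand at chr14:122456795-122465677 and *Zic2* on the plus strand at chr14:122475435-122479852, with 9757 bp between them. *Zic2* was at 53.9, 52.2 and 59.9 CPM in ESCs and at 130, 129 and 132 CPM in EpiLCs. It was at 33.6, 27.6 and 30.9 CPM in D2PGCLCs, 38.6, 65.0 and 40.2 CPM in D4PGCLCs and 44.3, 58.7 and 47.7 CPM in D6PGCLCs. The D2PGCLC samples were the lowest of all 15, while D4PGCLCs and D6PGCLCs overlapped ESCs.

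*Zic5* was at 37.4, 38.5 and 34.4 CPM in ESCs and at 95.5, 111 and 105 CPM in EpiLCs. It was at 31.6, 34.7 and 32.9 CPM in D2PGCLCs, 35.1, 42.5 and 30.6 CPM in D4PGCLCs and 38.7, 49.0 and 37.7 CPM in D6PGCLCs. Here only EpiLCs stood apart, and each PGCLC group overlapped ESCs.

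The ZIC pair had the smallest steps of the 8 into and out of EpiLCs. *Zic2* was 2.36-fold and *Zic5* 2.82-fold higher in EpiLCs than in ESCs (log2FC 1.24, SE 0.15 and log2FC 1.50, SE 0.12). By day 2 they had fallen to 23.5% and 31.9% of their EpiLC means (log2FC -2.09, SE 0.16 and log2FC -1.65, SE 0.12), the highest shares of the 8. *Zic2* then went below its ESC level on day 2 by less than the fold threshold (log2FC -0.85, adjusted p = 0.000146 in edgeR). On day 6 it did not differ detectably from ESCs (log2FC -0.14, 95% interval -0.46 to 0.18). For *Zic5* against ESCs the intervals were -0.40 to 0.10 on day 2 and -0.06 to 0.43 on day 6. The log2 ratio of *Zic2* to *Zic5* in CPM was -0.33 to 0.09 in D2PGCLCs and 0.14 to 0.80 in the other groups, with no overlap, so the pair did not move strictly together. This ratio was not tested.

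*Sox3*, on the X chromosome at chrX:60891366-60893430 (minus strand, 1 exon), encodes a SOXB1 factor, the subfamily of SOX1 and SOX2 that keeps neural and pluripotent progenitors undifferentiated. Its level was 2.48, 3.33 and 2.04 CPM in ESCs and 21.2, 12.7 and 11.7 CPM in EpiLCs. It dropped to 0.58, 0.29 and 0.18 CPM in D2PGCLCs, from 6 to 19 counts per sample, and was 0.76, 1.08 and 1.06 CPM in D4PGCLCs. In D6PGCLCs it was 2.84, 2.69 and 1.50 CPM. The 3 days did not overlap one another, and D6PGCLCs overlapped ESCs.

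*Sox3* was 5.82-fold higher in EpiLCs than in ESCs (log2FC 2.54, SE 0.32, adjusted p = 1.95e-06). By day 2 it was at 2.30% of the EpiLC mean (log2FC -5.42, SE 0.39, adjusted p = 1.46e-09) and also below ESCs (log2FC -2.88, SE 0.40, adjusted p = 7.46e-06). It then rose 6.63-fold from day 2 to day 6 (log2FC 2.73, SE 0.39, adjusted p = 3.33e-05), the widest later change of the 8. Without D2PGCLC replicate 1, the highest of the low day 2 values, the log2FC was 3.33 from day 2 to day 6, -6.02 against EpiLCs and -3.48 against ESCs, all of them called. The step from day 2 to day 4 was 1.45 (SE 0.42, adjusted p = 0.0320) and that from day 4 to day 6 was 1.28 (SE 0.34, adjusted p = 0.0194), both as log2FC, with calls that depended on single samples as given above. On day 6 it was not separable from ESCs (log2FC -0.15, 95% interval -0.82 to 0.52).

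*Sox4* and *Sox11* encode SOXC factors, which act in progenitors of many tissues and bind similar sites. *Sox4* has 1 exon at chr13:28948919-28953713 (minus strand). It was at 4.01, 4.82 and 2.91 CPM in ESCs and at 104, 113 and 123 CPM in EpiLCs. It was at 12.4, 12.9 and 12.6 CPM in D2PGCLCs, 13.4, 11.9 and 17.6 CPM in D4PGCLCs and 25.6, 23.9 and 26.3 CPM in D6PGCLCs. ESCs were the lowest group with no overlap, and day 6 lay above the earlier days.

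*Sox11* has 1 exon at chr12:27334264-27342574 (minus strand). It was at 15.5, 14.5 and 16.1 CPM in ESCs and at 55.8, 53.9 and 60.1 CPM in EpiLCs. It was at 3.06, 1.68 and 2.37 CPM in D2PGCLCs, 2.43, 3.37 and 2.63 CPM in D4PGCLCs and 5.20, 5.90 and 3.66 CPM in D6PGCLCs. All 9 PGCLC samples were below all ESC samples, the reverse of *Sox4*.

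Both SOXC genes rose into EpiLCs, *Sox4* by 29.1-fold (log2FC 4.87, SE 0.17, adjusted p = 4.60e-14) and *Sox11* by 3.68-fold (log2FC 1.88, SE 0.17, adjusted p = 3.56e-08). Both fell by day 2, *Sox4* to 11.2% and *Sox11* to 4.19% of the EpiLC mean (log2FC -3.16, SE 0.15 and log2FC -4.56, SE 0.20). Relative to ESCs, *Sox4* was then 3.25-fold higher on day 2 and 6.51-fold higher on day 6 (log2FC 2.70, SE 0.16, adjusted p = 9.16e-11). *Sox11* was below ESCs on both days (log2FC -2.69, SE 0.20 on day 2 and log2FC -1.64, SE 0.18, adjusted p = 4.04e-07 on day 6). From day 2 to day 6, *Sox11* was called (log2FC 1.05, SE 0.20, adjusted p = 0.00044), and *Sox4* narrowly missed the fold threshold (log2FC 0.9996, SE 0.14, adjusted p = 2.68e-05). The log2 ratio of *Sox4* to *Sox11* in CPM went from -2.46 to -1.59 in ESCs to 0.89 to 1.06 in EpiLCs and 1.82 to 2.94 across the PGCLC samples. *Gm26735*, antisense to *Sox4* over 2616 exon bases, had at most 23 counts in a sample. Whether counting used strand is not given in the sources used here, so reads of this pair and of the antisense pairs of *Otx2* and *Pou3f1* may have been shared.

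The upstream windows of the SOXC pair are shown because both genes rose into EpiLCs, by different amounts, and lie on opposite sides of their ESC levels afterwards. CCAAT, the core of the box bound by NF-Y, or its reverse complement ATTGG, is in capitals. It occurs 4 times in the 250 bases before the RefSeq start of *Sox4* (chr13:28953700-28953949, minus strand, GRCm38.p6) and 1 time in those of *Sox11* (chr12:27342719-27342968, minus strand), and 33.8% of all 32851 windows hold at least 1. The *Sox11* window also holds GGGCGG or its reverse complement CCGCCC 2 times, a letter match found in 32.7% of windows and in none for *Sox4*. GC content was 50.8% and 58.0%. The RefSeq start of *Sox11* lies upstream of the GENCODE gene given above. No binding was measured, and nothing is drawn from these matches.
Sox4: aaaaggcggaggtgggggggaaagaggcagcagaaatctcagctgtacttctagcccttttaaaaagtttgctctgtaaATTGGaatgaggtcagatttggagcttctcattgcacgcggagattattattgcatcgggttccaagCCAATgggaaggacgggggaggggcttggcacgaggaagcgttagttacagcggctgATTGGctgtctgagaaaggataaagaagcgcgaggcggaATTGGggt
Sox11: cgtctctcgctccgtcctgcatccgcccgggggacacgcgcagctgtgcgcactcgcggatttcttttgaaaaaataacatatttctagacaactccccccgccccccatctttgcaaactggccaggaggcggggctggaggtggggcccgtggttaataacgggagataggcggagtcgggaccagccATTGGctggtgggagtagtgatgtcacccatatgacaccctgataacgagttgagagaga

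*Sall2* encodes a zinc-finger factor of the Spalt family, of which SALL4 is the member central to pluripotency and germ cells. It lies at chr14:52311172-52328762 (minus strand, 2 exons in its longest transcript). Its level was 9.78, 13.4 and 10.4 CPM in ESCs and 37.1, 32.1 and 31.6 CPM in EpiLCs. It was 1.10, 1.36 and 0.60 CPM in D2PGCLCs, 0.70, 1.66 and 1.26 CPM in D4PGCLCs and 3.13, 2.51 and 2.10 CPM in D6PGCLCs. All 9 PGCLC samples were below the ESC samples, and those of day 6 were above those of days 2 and 4.

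*Sall2* was 3.00-fold higher in EpiLCs than in ESCs (log2FC 1.59, SE 0.23, adjusted p = 9.04e-06). On day 2 it was at 3.04% of the EpiLC mean (log2FC -5.05, SE 0.28, adjusted p = 3.89e-11) and below ESCs (log2FC -3.46, SE 0.27, adjusted p = 4.93e-09), the furthest below ESCs of the 8. It rose 2.55-fold from day 2 to day 6 (log2FC 1.35, SE 0.28, adjusted p = 0.00108) and remained below ESCs there (log2FC -2.11, SE 0.24, adjusted p = 6.98e-07). Without D6PGCLC replicate 1 the rise from day 2 was 1.20 on the log2 scale and was still called.

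**Figure D2:**
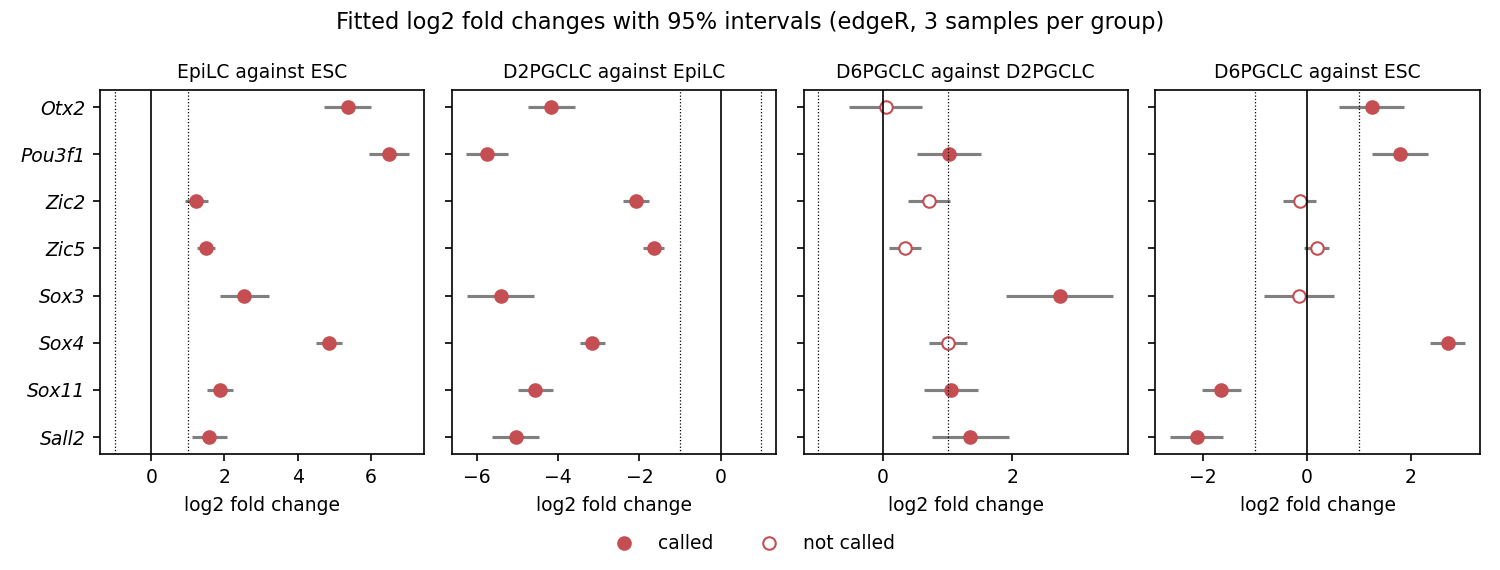
Fitted log2 fold changes of the 8 factors in 4 comparisons with 95% intervals, from edgeR's fit of all 15 samples. Filled points were called and open points were not, dotted lines mark -1 and 1, and each panel has its own scale. All 8 are above 1 in EpiLCs against ESCs and below -1 in D2PGCLCs against EpiLCs, whereas D6PGCLCs against ESCs has 3 above, 2 below and 3 open points near 0.

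The factors also differed in how much of the EpiLC level they had in ESCs. *Zic2* (42.5%), *Zic5* (35.4%), *Sall2* (33.4%) and *Sox11* (27.2%) had the highest shares in ESCs, *Sox3* was at 17.2%, and *Sox4* (3.46%), *Otx2* (2.42%) and *Pou3f1* (1.10%) had the lowest. On day 6 the order was another, from *Zic5* (40.3%) and *Zic2* (38.5%) through *Sox4* (22.3%), *Sox3* (15.4%), *Sox11* (8.69%) and *Sall2* (7.68%) to *Otx2* (5.68%) and *Pou3f1* (3.78%). The order of the groups was EpiLCs first for all 8, with ESCs last for *Otx2*, *Pou3f1* and *Sox4* and D2PGCLCs last for *Zic2*, *Zic5*, *Sox3*, *Sox11* and *Sall2*. Neighbours at the bottom of this order overlapped for *Pou3f1* (D2PGCLCs and ESCs), *Zic5* (D4PGCLCs and D2PGCLCs), *Sox11* and *Sall2* (both D4PGCLCs and D2PGCLCs).

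**Figure D3:**
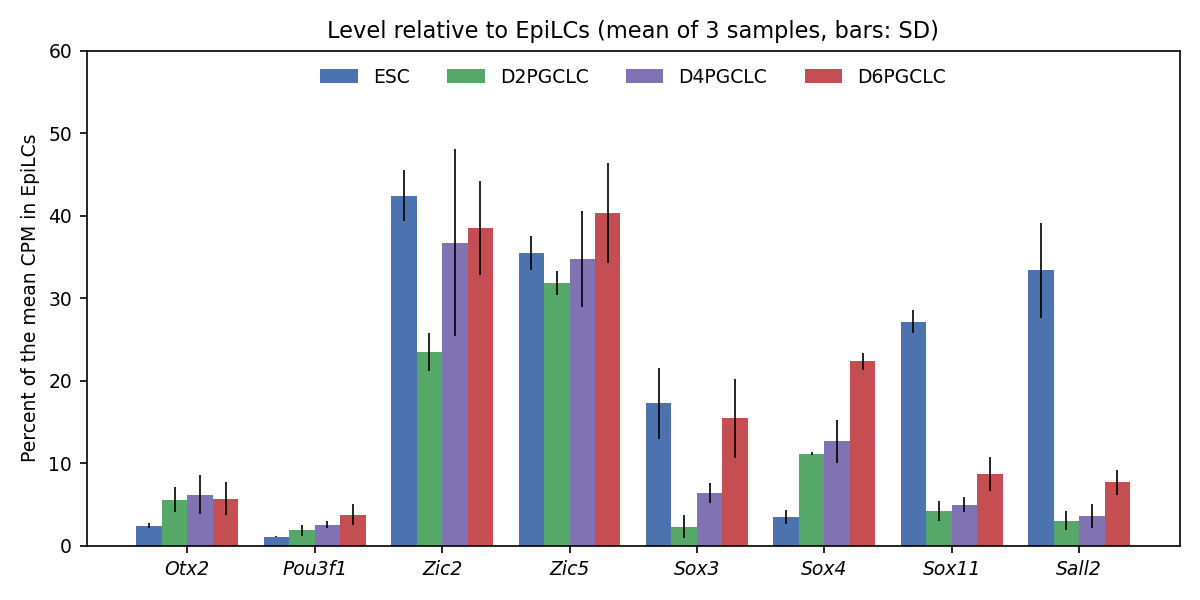
Mean CPM of each factor in ESCs and on the 3 days of PGCLC induction, as a percentage of its mean in EpiLCs, with bars starting at 0 and lines for the SD of 3 samples. *Otx2* and *Pou3f1* stay under 10% in all 4 groups, and *Zic2* and *Zic5* keep 23.5% to 42.5%. The means of *Zic2*, *Sox3*, *Sox11* and *Sall2* are higher in ESCs than on any day, with samples that do not overlap only for *Sox11* and *Sall2*.

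The order of the factors by level was read as CPM per kilobase of exon, whereas the ratios between genes are in CPM and are compared only between groups. In ESCs *Zic2* (19.2 ± 1.40 CPM per kb, SD, n = 3) and *Zic5* (7.52 ± 0.43) led, and *Pou3f1* (0.53 ± 0.05) was last, overlapping *Otx2* (0.63 ± 0.08). In EpiLCs *Pou3f1* (47.8 ± 3.42 CPM per kb) and *Zic2* (45.3 ± 0.66) overlapped at the top, and which of them came first depended on the gene length used. They were followed by *Otx2* (25.9 ± 4.24), *Sox4* (23.6 ± 2.05) and *Zic5* (21.2 ± 1.57), neighbours that overlapped. *Sox3*, *Sox11* and *Sall2* came last, at 6.18 to 7.36 CPM per kb, and overlapped too. On each PGCLC day the order began *Zic2*, *Zic5*, *Sox4* with no overlap, at 10.7, 6.76 and 2.64 CPM per kb on day 2 and 17.4, 8.55 and 5.27 CPM per kb on day 6. *Sox11* and *Sall2* were at 0.29 and 0.19 CPM per kb on day 2, and overlapped.

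Most relatives of these factors in the same gene families, like most genes tested, were not called between EpiLCs and D2PGCLCs. Of 16 relatives, 11 were tested. In EpiLCs against ESCs 1 was called higher (*Foxd4*, against 14.4% of all genes) and 3 lower (*Pou3f3*, *Foxd1* and *Sall3*, against 11.9%). From EpiLCs to D2PGCLCs 3 were called lower (*Foxd4*, *Sox1* and *Sall3*) and 8 were not called, while 14.4% of all genes were lower and 11.0% higher. Their median log2FC in that comparison was -0.36, against -4.37 for the 8 factors and 0.00 for all genes tested. *Sox2*, the SOXB1 factor of the core pluripotency network, was at 287 CPM in ESCs, 271 CPM in EpiLCs and 475 CPM in D2PGCLCs (log2FC 0.81 against EpiLCs, under the fold threshold). *Sall4* was at 165, 180 and 287 CPM in the same order and at 213 CPM in D6PGCLCs. *Sall1* went from 244 CPM in EpiLCs to 106 CPM in D6PGCLCs (log2FC -1.20, called lower), and *Sox12* was between 27.0 and 47.8 CPM in all groups. The lower relatives were *Sall3* (16.8, 4.16 and 1.77 CPM in ESCs, EpiLCs and D2PGCLCs), *Foxd1* (1.70, 0.12 and 0.02 CPM) and *Pou3f3* (1.48, 0.37 and 0.32 CPM). *Sox1* was at 1.81, 1.06 and 0.21 CPM, and the group means of the other 8 relatives were all under 1 CPM.

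The ratio of each factor to a relative in the same sample does not depend on the scaling of the library. The log2 ratio of *Sox3* to *Sox2* was -4.66 to -3.56 in EpiLCs and -11.4 to -9.64 in D2PGCLCs, and that of *Sall2* to *Sall4* was -2.52 to -2.31 and -8.76 to -7.82. For all 4 pairs drawn, every EpiLC sample was above every PGCLC sample. From day 2 to day 6, 3 low relatives of the 11 tested were called higher, against 10.9% of all genes. These were *Otx1*, *Pou3f3* and *Sox1*, at means of 0.98, 2.43 and 1.01 CPM on day 6.

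**Figure D4:**
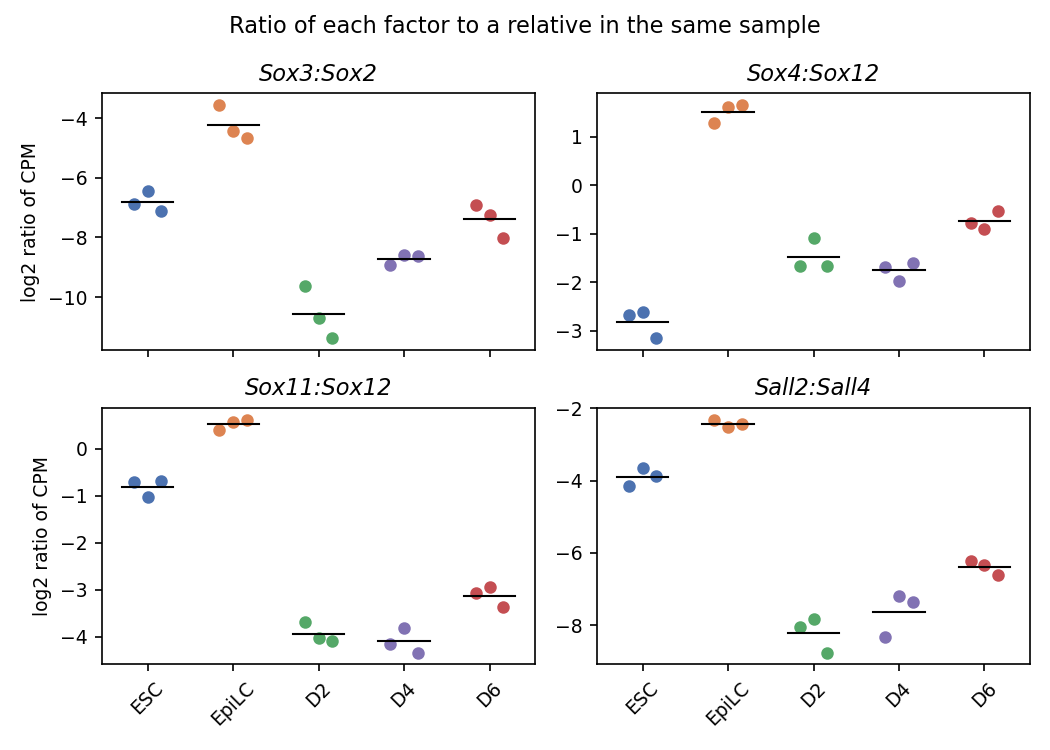
Log2 ratio of CPM between each of 4 factors and a relative, in every sample, with a line at the group mean and a scale of its own in each panel. Day 2 is far below EpiLCs in all 4 panels, and in every panel the day 6 mean is above the day 2 mean and below the EpiLC mean.

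Most other formative and primed genes were also highest in EpiLCs. Of 15 such genes, all tested, 11 were called higher in EpiLCs than in ESCs (against 14.4% of all genes) and 4 were not called. In D2PGCLCs against EpiLCs, 11 were called lower (against 14.4% of all genes) and 4 were not called. These were not all the same genes. *Utf1* was at 69.2, 203 and 287 CPM in ESCs, EpiLCs and D2PGCLCs, and *Cdh2* was at 9.13, 7.25 and 2.76 CPM. *Fgf5*, the growth factor used to mark the formative state, had 0 or 1 count in ESC samples, 58.5 ± 5.71 CPM in EpiLCs and 0.89 ± 0.39 CPM in D2PGCLCs (SD, n = 3). At the other end, the ETS factor *Etv4* had log2FCs of -0.75 in EpiLCs against ESCs and 0.88 in D2PGCLCs against EpiLCs, neither of them called. On day 6 against ESCs, 4 of the 15 were higher (against 15.8% of all genes) and 4 lower (against 10.3%). From day 2 to day 6, 1 of the 15 was called higher (*Sfrp2*) and 2 lower (*Jakmip2* and *Lin28a*). Over those days 4 of the 8 factors were called higher, and 10.9% of all genes were higher and 2.75% lower. The naive factors went the other way, with 9 of 11 lower in EpiLCs than in ESCs, against 11.9% of all genes. The 11 ranged from *Tfcp2l1* (log2FC -4.93) to *Fgf4* (log2FC -0.27 and not called). From EpiLCs to D2PGCLCs, 9 of the 11 were higher (against 11.0% of all genes), up to *Esrrb* (log2FC 3.21). The other 2 were lower (against 14.4% of all genes), *Klf4* (log2FC -1.44) and *Fgf4*. All 6 PGC markers were higher in D2PGCLCs (against 11.0% of all genes), from *Dnd1* (log2FC 1.58) to *Itgb3* (log2FC 5.12).

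Markers of other cell types were read beside the EpiLC peak. The 8 fibroblast markers summed to 26.6 to 26.9 CPM in EpiLCs, 9.12 to 10.4 CPM in ESCs and 2.07 to 4.84 CPM in PGCLC samples, so this sum moved in the same direction as the factors. Of the 6 tested, 4 were called higher in EpiLCs than in ESCs (against 14.4% of all genes) and 5 lower in D2PGCLCs than in EpiLCs (against 14.4%). *Thy1* was at 5.80, 12.8 and 0.60 CPM in ESCs, EpiLCs and D2PGCLCs, *Col1a1* at 1.96, 3.60 and 0.34 CPM and *Col1a2* at 0.14, 1.53 and 0.43 CPM. *Dcn* was at 0 counts in ESCs and at 5.83 CPM in EpiLCs. *Lum* was at 0 in EpiLCs, and *Col3a1* and *Postn* were under 1 CPM there. The part of such cells in the EpiLC levels of the factors was not tested. The 11 neural progenitor markers summed to 48.0 to 58.5 CPM in EpiLCs, below the 75.7 to 85.8 CPM of ESCs, 8 of the 11 were under 1 CPM in EpiLCs, and *Neurog2* and *Six3* were at 0 there. Of the 6 tested, 2 were called higher in EpiLCs than in ESCs (against 14.4% of all genes) and 4 were not called. The 2 were *Neurod1* (0.18 to 8.66 CPM, and 0.21 CPM in D2PGCLCs) and *Pax6* (1.26 to 3.01 CPM, and 4.27 CPM in D2PGCLCs). *Neurod1* was, like the factors, highest in EpiLCs. In D6PGCLCs the summed level was 39.3 to 45.9 CPM, above the 20.0 to 24.8 CPM of D2PGCLCs. This was mostly through *Nes* (17.0 and 34.2 CPM on days 2 and 6, log2FC 1.01, and 78.7 CPM in ESCs). The sum thus moved with the later rise of *Sox3*, *Sox11* and *Sall2*, but the list did not move as a whole. Of the 6 tested, 1 was called higher from day 2 to day 6 (against 10.9% of all genes), 1 lower (against 2.75%) and 4 were not called. *Hes5* went from 0.43 to 0.05 CPM. The 10 mesoderm and endoderm markers summed to 41.85 to 45.9 CPM in ESCs, the highest group, and 10.6 to 11.1 CPM in EpiLCs. Their sum was 17.7 to 23.7 CPM in D2PGCLCs, 23.5 to 34.2 CPM in D4PGCLCs and 27.0 to 28.0 CPM in D6PGCLCs. From day 2 to day 6, 3 of the 8 tested were called higher (against 10.9% of all genes) and 0 lower (against 2.75%). *Gata6* reached 9.25 CPM on day 6, while *Eomes* went from 19.1 CPM on day 2 to 14.2 CPM on day 6. The part of neural, mesoderm or endoderm cells in these levels was not tested.

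Over the 15 samples the factors were not all alike in pattern. Pearson's r of log2(CPM + 1) was 0.98 between *Otx2* and *Pou3f1* and 0.99 between *Sox11* and *Sall2*, but 0.51 between *Sox4* and *Sox11* and 0.45 between *Sox4* and *Sall2*. The samples share 5 groups, so r mostly describes group means. Among 13468 protein-coding genes, the genes most like *Otx2* were *Ptch1*, *Msi2* and *Mcl1* (r = 0.988 to 0.990), and those most like *Pou3f1* were *Ccdc136*, *Ccno* and *Cthrc1* (r = 0.990 to 0.992). For *Zic2* they were *Dact3*, *Ecsit* and *Doc2a*, for *Zic5* *Ube2g1*, *Dnmt3a* and *Zscan4-ps1*, and for *Sox3* *Limd2*, *Barx2* and *Unc5b*. For *Sox4* they were *Mfap3l*, *Mettl7a1* and *Pi4k2b*, and for *Sox11* *Akr1b8*, *Gpd2* and *Gja1*. *Sall2* was most like *Arhgap8*, *Akr1b8* and *Sox11* itself (r = 0.986 to 0.991). *Dnmt3a*, which encodes a de novo DNA methyltransferase, had means of 76.4 CPM in ESCs, 1057 CPM in EpiLCs and 79.1 CPM in D2PGCLCs.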

How the data were processed

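RNA-seq counts of 15 samples, 3 in each of 5 groups, were used. The authors purified RNA with TRIzol, prepared directional NEBNext Ultra II libraries and deposited raw counts of 55536 ENSEMBL genes with no normalization. The submitters' processing notes name Trim Galore, FastQC, STAR and mm10. The counting tool, its use of strand and its treatment of multi-mapping reads are not given in the sources used here. Symbols and coordinates came from GENCODE M21, in which all 55536 identifiers were found, and upstream windows from RefSeq (6 of the 9 members matched).

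Counts were fitted with edgeR 4.0.16 in R 4.3.3 (limma 3.58.1, TMM, filterByExpr with a minimum of 10 counts, 1 quasi-likelihood fit of 15 samples, Benjamini-Hochberg adjustment over 18090 genes) for 8 comparisons, with no covariate. Both edgeR and DESeq2 1.42.0, the tool of the study, were tested on simulated data of EpiLCs against ESCs, with changes above the fold threshold. The fit of all 15 samples and the comparisons between PGCLC days were not simulated. Alternatives were DESeq2, its size factors, no filter, a replicate block, a fit of the compared groups alone, no fold threshold, and leaving out each sample. For likeness, 1 was added to CPM and genes needed a group mean of at least 1 CPM.

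A further relative and 1 marker are not reported here. The members and gene lists were chosen with earlier results of these data known. Named besides the members were the list genes with the highest and lowest log2 fold change, relatives with a group mean of at least 1 CPM, the 3 genes most like each member and genes overlapping a member. *Foxd4*, *Otx1*, *Utf1*, *Cdh2*, *Sfrp2*, *Jakmip2*, *Lin28a*, *Alg6*, *Gm12688*, *Nes*, *Pax6*, *Hes5*, *Gata6*, *Eomes*, *Col1a1*, *Col1a2*, *Thy1* and the markers at or near 0 were named after their values were seen.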

Additional observations from a re-analysis of the deposited data

How the results depend on the processing

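The 8 calls in EpiLCs against ESCs, in D2PGCLCs against EpiLCs and in D6PGCLCs against EpiLCs, and the 3 higher and 2 lower calls in D6PGCLCs against ESCs, were made under every alternative run. The later calls were not as stable. The number of factors called higher from day 2 to day 4 was 1, and it was 0 with only the compared groups fitted and 2 with no fold threshold (0 to 1 with a sample left out). From day 4 to day 6 it was 2, and 0 with only the compared groups and 4 with no fold threshold (0 to 2 with a sample left out, 1 without D6PGCLC replicate 2). From day 2 to day 6 it was 4. It was 5 with DESeq2, with its size factors or with only the compared groups, and 7 with no fold threshold. With a sample left out it was 3 to 5, the range including *Sox4*, whose log2FC was 0.97 to 1.03. In D2PGCLCs against ESCs the number called higher was 2, and 1 to 3 with a sample left out, the 1 being without D2PGCLC replicate 2. Beyond the compared groups having fewer samples, the cause was not tested.

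With a sample left out, uncalled log2FCs changed sign: *Otx2* from day 2 to day 4 (-0.14 to 0.42), day 4 to day 6 (-0.38 to 0.17) and day 2 to day 6 (-0.20 to 0.29), *Zic5* (-0.011 to 0.23) and *Sall2* (-0.040 to 0.53) from day 2 to day 4, *Zic2* from day 4 to day 6 (-0.071 to 0.35), and *Sox3* in D6PGCLCs against ESCs (-0.29 to 0.10).

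With the replicate number as a block, 0 of the 64 calls on the 8 factors changed, and no log2FC moved by more than 0.06. Nothing in the labels ties samples of equal number to one batch or day. Deviations from group means correlated at a mean r of 0.07 over 30 pairs with the same number (-0.18 to 0.36). The mean over 60 other pairs, -0.04, is largely fixed by this, because deviations in a group sum to 0, and is no separate comparison. The numbers were not taken as pairs, because the labels do not tie them. DESeq2's size factors moved the median of all genes by at most 0.048 on the log2 scale. Counts of 6 to 38 per D2PGCLC sample limit *Sox3* and *Sall2* on that day.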

Other observations

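The replicates of a group were not ordered alike for all factors. D4PGCLC replicate 2 was the highest of its group for 7 of the 8 factors (all but *Sox4*, for which it was the lowest), D6PGCLC replicate 3 was the lowest of its group for 6 of the 8, and ESC replicate 2 was the highest of its group for 6 and the lowest for the other 2. For how many of all genes tested these samples were highest or lowest was not counted. The other 15 formative and primed genes summed to 1380 CPM in D4PGCLC replicate 2, against 1135 and 1178 CPM in the other D4PGCLC samples, and to 870.3 CPM in D6PGCLC replicate 3, against 943.7 and 1005 CPM. *Dppa3*, on whose reporter the cells were sorted, was at 423.8 CPM in D4PGCLC replicate 2 (406.4 and 514.7 CPM in the other D4PGCLC samples) and at 522.2 CPM in D6PGCLC replicate 3 (431.9 and 472.1 CPM in the other D6PGCLC samples).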
